A study of Caenorhabditis elegans with 2 samples.

Results

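The genes described here encode the proteasome and the ATPase CDC-48 of Caenorhabditis elegans, and the question is where FKH-2 was bound near them. The set holds 34 of 19973 protein-coding genes on the 6 nuclear chromosomes, taken by name from a list: 14 genes of the 20S core (pas-1 to pas-7 and pbs-1 to pbs-7), 6 ATPase genes of the 19S cap (rpt-1 to rpt-6), 11 other 19S genes (rpn-1, rpn-2, rpn-3, rpn-5, rpn-6.1 and rpn-7 to rpn-12), cdc-48.1, cdc-48.2 and ufd-1. No peak value enters the rule. FKH-2 was profiled by chromatin immunoprecipitation and sequencing in 2 biological replicates of 1 group, whole third-stage larvae (L3) of mixed sex. The animals were of strain OP185, which carries unc-119(ed3) on chromosome III and the transgene wgIs185, which expresses FKH-2 carrying an eGFP tag (a green fluorescent protein). The promoter that drives the tagged protein was not given in the labels, the antibody label reads fkh-2, and no second condition or control library was analysed here, so signal unrelated to FKH-2 cannot be told apart from binding at any gene below.

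The 26S proteasome degrades proteins marked with ubiquitin. Its 20S core is a barrel of alpha and beta rings, with the proteolytic sites on beta subunits, and the 19S cap recognises ubiquitin, removes it and unfolds the substrate with a ring of RPT ATPases. CDC-48, known as p97 in mammals, extracts ubiquitinated proteins from membranes and complexes with UFD-1 and NPL-4 and hands them on. In worms, the SKN-1A form of the transcription factor SKN-1 raises transcription of proteasome genes when proteasome function is impaired. FKH-2 belongs to the forkhead family, whose winged-helix domain binds DNA.

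A peak counted for the protein-coding gene whose transcript start was nearest to the peak centre, if within 2000 bp. A score is the value the authors' caller gave a peak, on a scale that was not given, and rank 1 is the highest score of a list. The list of both replicates pooled and that of replicate 1 hold 30000 peaks each, and that of replicate 2 holds 24744. Per the deposited files these lists hold background regions as well as peaks, and their q-values reach 0.541 in the pooled list. The set kept by irreproducible discovery rate (IDR), which retains peaks that repeat in rank between replicates, holds 203 peaks, the 203 highest scores of the pooled list. The lists give no read numbers. Depth is therefore unknown, and intervals cover counting error over genes only.

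The sequences of 4 peaks are shown: the IDR peaks of cdc-48.1 and rpn-3, the strongest assigned peak outside the IDR set (rpn-6.1), and the peak of cdc-48.2 for comparison with its paralogue. They come from the RefSeq sequence of WBcel235 (ce11) and are printed 5′ to 3′ on the strand of the gene. The peaks are chrII:10563418-10563707 (minus strand) for cdc-48.1, chrIII:8447025-8447314 (plus) for rpn-3, chrIII:6961256-6961545 (minus) for rpn-6.1 and chrII:8137940-8138229 (plus) for cdc-48.2. Capitals mark letters of any of 3 motifs on either strand: the forkhead core GTAAACA or ATAAACA, the repeat GAGAGA, and the SKN-1 core TGTCAT or TATCAT.
cdc-48.1: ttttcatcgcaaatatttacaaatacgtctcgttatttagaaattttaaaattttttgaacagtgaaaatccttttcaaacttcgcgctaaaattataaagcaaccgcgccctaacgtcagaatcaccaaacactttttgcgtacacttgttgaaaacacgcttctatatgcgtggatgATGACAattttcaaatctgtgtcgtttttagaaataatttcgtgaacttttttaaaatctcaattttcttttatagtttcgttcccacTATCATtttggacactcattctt
rpn-3: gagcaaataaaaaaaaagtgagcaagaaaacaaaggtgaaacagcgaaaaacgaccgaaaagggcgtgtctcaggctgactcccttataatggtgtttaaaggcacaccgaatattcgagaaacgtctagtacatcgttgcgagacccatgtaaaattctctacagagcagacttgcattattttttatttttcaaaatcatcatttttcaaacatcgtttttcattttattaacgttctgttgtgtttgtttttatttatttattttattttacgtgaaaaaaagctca
rpn-6.1: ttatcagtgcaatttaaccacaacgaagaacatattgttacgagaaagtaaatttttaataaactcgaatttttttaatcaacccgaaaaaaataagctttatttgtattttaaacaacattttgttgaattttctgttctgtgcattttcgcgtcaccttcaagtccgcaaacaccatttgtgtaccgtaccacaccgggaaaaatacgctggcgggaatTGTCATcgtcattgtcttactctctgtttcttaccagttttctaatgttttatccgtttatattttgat
cdc-48.2: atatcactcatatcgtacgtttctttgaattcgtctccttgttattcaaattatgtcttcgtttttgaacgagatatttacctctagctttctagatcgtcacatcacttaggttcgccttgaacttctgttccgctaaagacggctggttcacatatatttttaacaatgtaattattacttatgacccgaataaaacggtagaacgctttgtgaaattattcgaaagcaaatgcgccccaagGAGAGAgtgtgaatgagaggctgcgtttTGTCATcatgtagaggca

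The FKH-2 signal in the set was strongest at cdc-48.1 and rpn-3. Both had an IDR peak just upstream of the start, ranked high in each replicate as well as in the pooled list, and no other member did. That is 2 of 34 genes (5.88%, 95% Wilson interval 1.63 to 19.1), beside 0.697% of the 19939 other protein-coding genes. The members span all 5 autosomes and none is on chromosome X, which holds 13.7% of the other genes. Among the other autosomal genes alone the share was 0.604%. Because the genes were listed with results of these data known, no test was made of these shares.

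The peak of cdc-48.1 (WBGene00007352, chromosome II, 10560036 to 10563407) was the strongest of any member. Its score was 48.3 in the pooled list, 28.1 in replicate 1 and 18.4 in replicate 2, at ranks 9, 28 and 12. The peak was intergenic, with its centre 156 bp upstream of the start in the pooled list and in replicate 1, and 181 bp upstream in replicate 2. Starts of 2 further genes, C06A1.6 and C06A1.7, lay 1115 and 1328 bp from the centre, so cdc-48.1 was the nearest by a wide margin. No forkhead core and no GAGA repeat was present in its 290 bp. The SKN-1 core TGTCAT occurred on the strand opposite to the gene, 37 bp from the peak centre, and TATCAT occurred 125 bp from it.

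The paralogue cdc-48.2 (WBGene00008053, chromosome II, 8138496 to 8141230) showed a much weaker signal, although CDC-48.1 and CDC-48.2 are known as closely related ATPases. Its strongest peak was intergenic, 411 bp upstream, with a pooled score of 8.38 at rank 6569. It overlapped a replicate 1 peak with a score of 8.60 at rank 1971 and no peak of replicate 2. The cofactor gene ufd-1 (WBGene00006733, chromosome IV, 12329408 to 12330890) had no peak within 2000 bp of a start, the nearest pooled peak centre being 2346 bp away. The strength of the cdc-48.1 peak was therefore not shared by either of the other genes of this group.

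**Figure D1:**
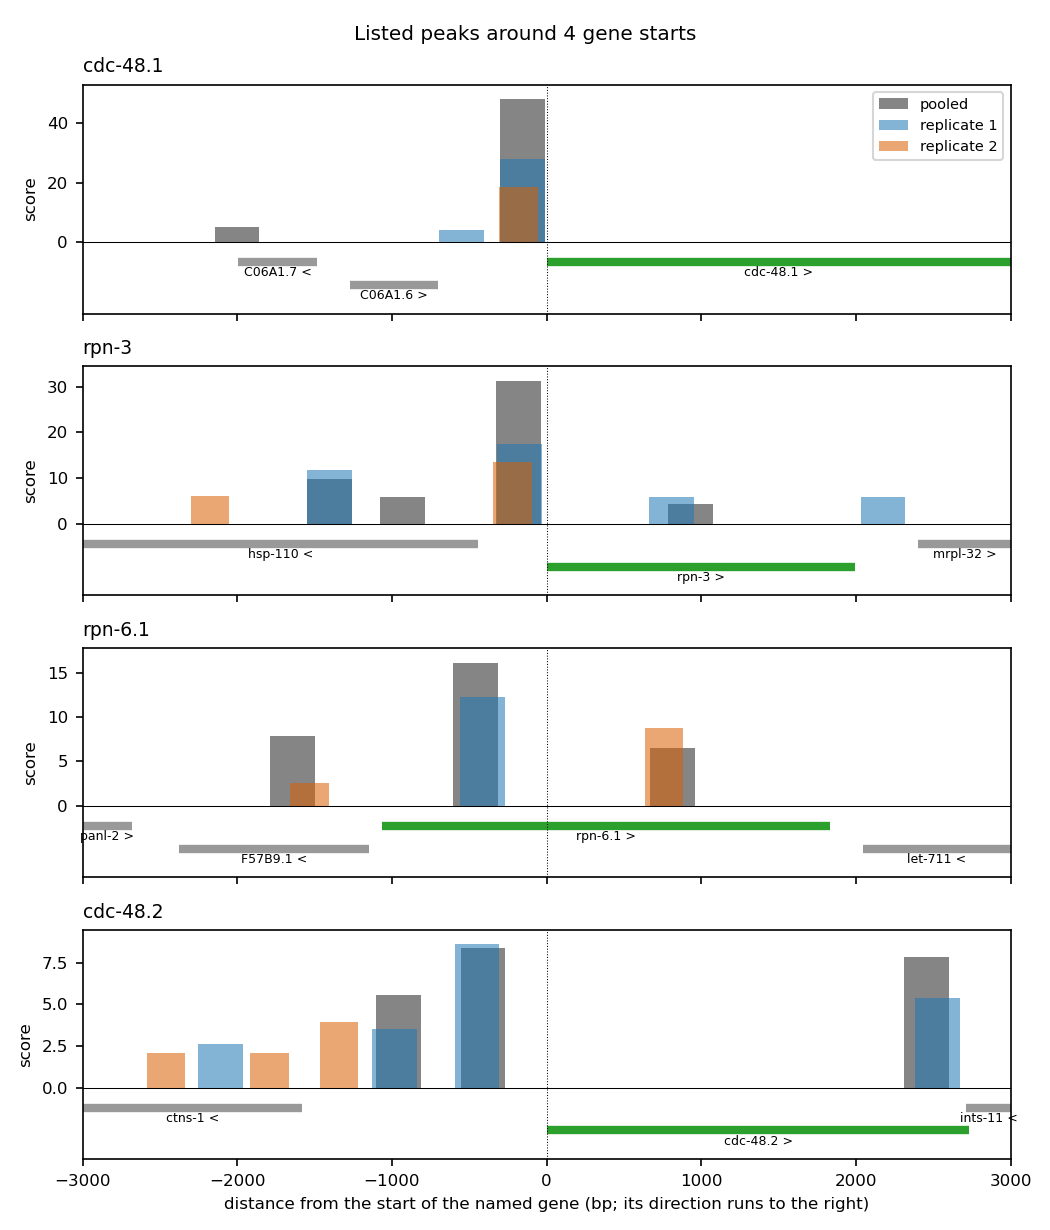
Listed peaks within 3000 bp of the assigned start of cdc-48.1, rpn-3, rpn-6.1 and cdc-48.2; the x axis is the distance from that start in bp, the y axis the authors' score (each panel has its own scale), bars are as wide as the peaks and colours give the list, with gene bodies below. Peaks of all 3 lists overlap upstream of cdc-48.1 and rpn-3, at pooled scores of 48.3 and 31.3, whereas the main peaks of the replicates lie apart at rpn-6.1.

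Among the 11 non-ATPase genes of the 19S cap, rpn-3 (WBGene00004460, chromosome III, 8447353 to 8449346), which encodes a lid subunit, had the strongest peak. Its score was 31.3 in the pooled list (rank 63), 17.4 in replicate 1 (rank 139) and 13.5 in replicate 2 (rank 71). The centre lay 183 bp upstream of the rpn-3 start, in the interval between rpn-3 and the divergent gene hsp-110, whose start was 261 bp away. HSP-110 is a chaperone that acts with HSP70 proteins, so the peak stands between a proteasome gene and a chaperone gene and its assignment rests on a small difference in distance. A short noncoding RNA gene, C30C11.14 (53 bp), also starts 75 bp from the centre, and counting noncoding genes as candidates moved the peak to it. A second, weaker peak assigned to rpn-3 lay in its coding sequence, at pooled rank 29534. No match to any of the 3 motifs was found in the 290 bp of the IDR peak.

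The lid gene rpn-6.1 (WBGene00004462, chromosome III, 6959110 to 6962001) came next among the members, and here the replicates marked different places. RPN-6.1 stabilises the contact between cap and core, and its level is known to affect proteasome activity in worms. The strongest pooled peak had a score of 16.1 (rank 564) and lay 461 bp upstream of a start, in an intron of a longer transcript. It overlapped a replicate 1 peak with a score of 12.3 (rank 471) and no replicate 2 peak. Replicate 2 had its strongest rpn-6.1 peak 760 bp downstream of the start, with a score of 8.74 (rank 470). It overlapped a second pooled peak, in coding sequence at rank 13270, which overlapped no replicate 1 peak. The gene was thus among the 1000 strongest peaks in each list, while no single site of it was strong in both replicates. Its upstream peak held TGTCAT, 79 bp from the centre. The start of F57B9.1 lay 689 bp from that centre.

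**Figure D2:**
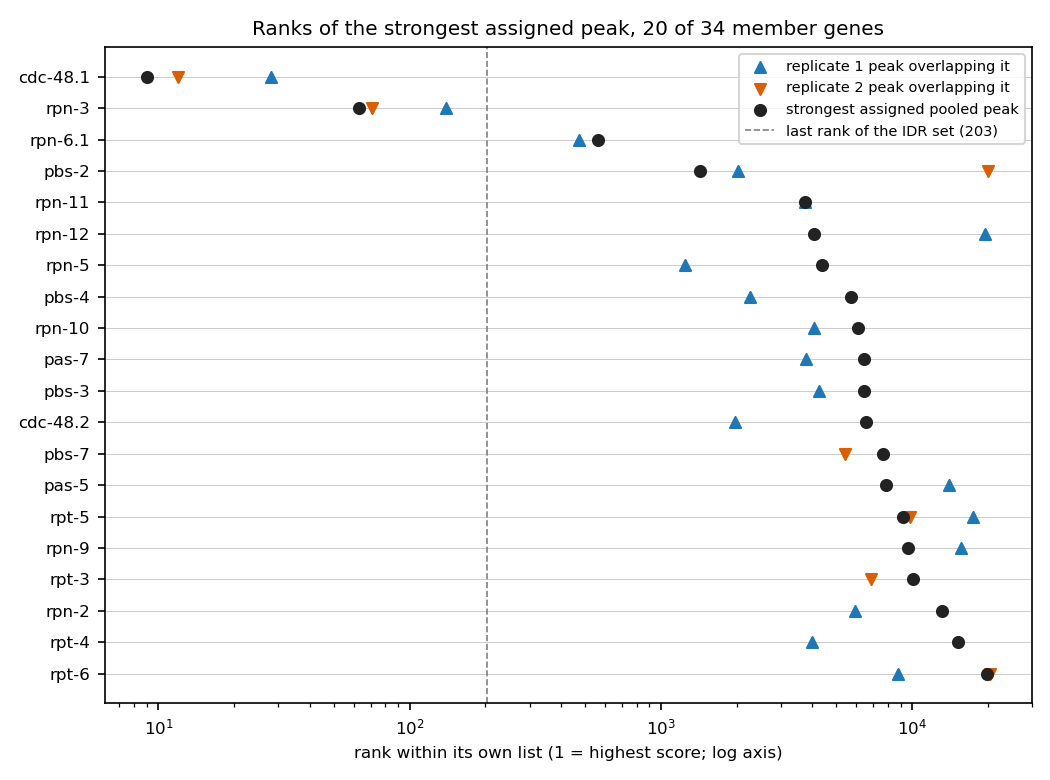
Rank of the strongest assigned pooled peak (black) of the 20 members that have one, with the rank of the replicate 1 (blue) and replicate 2 (orange) peak that overlaps it; the x axis is the rank in each list on a log scale and the dashed line is the last rank of the IDR set, 203. Only cdc-48.1 and rpn-3 lie left of the line, and 13 members have a blue symbol without an orange one.

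The remaining non-ATPase genes had weaker peaks, and 8 of the 11 had an assigned peak in all (72.7%, 43.4 to 90.3, beside 61.2% of other genes). The deubiquitinase gene rpn-11 (WBGene00004467, chromosome II, 4043055 to 4044546) had a peak in coding sequence, 885 bp downstream of the start (pooled score 9.88, rank 3759). It overlapped a replicate 1 peak (score 7.17, rank 3759) and none of replicate 2. Replicate 2 overlapped the other rpn-11 peak instead, an intergenic one with a pooled score of 9.15 and a replicate 2 score of 5.14 (rank 4271). As at rpn-6.1, the replicates marked different sites of the gene. The lid gene rpn-12 (WBGene00004468, chromosome II, 11653124 to 11654192) had a peak 1309 bp downstream of its start, in a 3′ UTR (pooled score 9.65, rank 4076). This was the most distant of the strongest peaks assigned to members, its replicate 1 score was only 3.62 (rank 19587), and no replicate 2 peak overlapped it. The start of rad-23, a shuttle of ubiquitinated proteins, was 1704 bp from the same centre. The lid gene rpn-5 (WBGene00004461, chromosome II, 4696418 to 4698427) had a peak 25 bp downstream of its start, in the 5′ UTR (pooled score 9.45, rank 4396), with a replicate 1 score of 9.62 (rank 1247) and no overlapping replicate 2 peak. The start of the cohesin gene scc-1 lay 319 bp from it. The ubiquitin receptor gene rpn-10 (WBGene00004466, chromosome I, 10730712 to 10732424) had a peak 241 bp upstream, in coding sequence (pooled score 8.58, rank 6097), which overlapped the replicate 1 peak of rank 4060 and none of replicate 2. Starts of mrpl-9 and kin-3 lay 1001 and 1357 bp from that centre. The strongest peaks of rpn-9 and rpn-2 ranked 9660 and 13133, with overlap in replicate 1 alone. The scaffold gene rpn-1 and the lid genes rpn-7 and rpn-8 had no assigned peak.

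The core genes had no assigned IDR peak and no assigned peak among the 1000 strongest. For the 7 alpha genes and for the 7 beta genes, the 95% Wilson interval of either count reaches 35.4%. These intervals include the 0.697% and 3.52% of other genes, so the absences cannot be told apart from the shares of other genes. Of the 7 beta genes, 4 had an assigned peak (57.1%, 25.0 to 84.2, beside 61.2% of other genes). The gene pbs-2 (WBGene00003948, chromosome I, 12967216 to 12968280), which encodes a proteolytic subunit, had the strongest. Its intergenic peak lay 329 bp upstream, with scores of 12.6 in the pooled list (rank 1433), 8.52 in replicate 1 (rank 2029) and 2.42 in replicate 2 (rank 20029). The start of eif-6, a gene of ribosome biogenesis, lay 337 bp from the same centre, only 8 bp farther, and those of gale-1 and tba-2 lay 1630 and 1814 bp away. The peak of replicate 1 itself lay nearer to eif-6 and was not assigned to pbs-2 when that list was used alone. The gene pbs-4 (WBGene00003950, chromosome I, 3908747 to 3909701) had 3 assigned peaks, the strongest 451 bp upstream (pooled score 8.74, rank 5717; replicate 1 score 8.28, rank 2257) without overlap in replicate 2. The peak of pbs-3 ranked 6433 and overlapped replicate 1 alone. That of pbs-7 ranked 7687 and overlapped replicate 2 alone. No peak was assigned to pbs-1, pbs-5 or pbs-6.

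Of the 7 alpha genes, 2 had an assigned peak (28.6%, 8.22 to 64.1), the smallest count of the 4 subunit classes. The interval includes the 61.2% of other genes. The peak of pas-7 (WBGene00003928, chromosome II, 10098782 to 10099854) lay 192 bp upstream, between pas-7 and the divergent gene puf-12, whose start was 264 bp away. Its pooled score was 8.44 (rank 6427), its replicate 1 score 7.15 (rank 3783), and no replicate 2 peak overlapped it. The peak held GAGAGA within 50 bp of its centre. Noncoding genes start close by, and with these counted as candidates no peak was assigned to pas-7. The peak of pas-5 ranked 7855, 1192 bp upstream. No peak was assigned to pas-1, pas-2, pas-3, pas-4 or pas-6.

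Of the 4 subunit classes, the 19S ATPase genes had the weakest assigned peaks by median rank. A peak was assigned to 4 of 6 (66.7%, 30.0 to 90.3, beside 61.2% of other genes). Their ranks ran from 9234 (rpt-5) to 19816 (rpt-6) with a median of 12685.5, and all 4 centres lay downstream of the start in coding sequence. The median ranks of the alpha, beta and other 19S genes with a peak were 7141, 6075 and 4236. The ranges overlap, as the peaks of rpn-9 (9660) and rpn-2 (13133) were weaker than that of rpt-5. The peaks of rpt-5 and rpt-6 overlapped both replicates, but only weak peaks of each. The ranks in replicates 1 and 2 were 17520 and 9799 for rpt-5 and 8768 and 20390 for rpt-6. The peak of rpt-4 overlapped replicate 1 alone and that of rpt-3 (rank 10120) replicate 2 alone. None was assigned to rpt-1 or rpt-2.

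Counted over the whole pooled list, members had assigned peaks about as often as other genes. A peak was assigned to 20 of 34 (58.8%, 42.2 to 73.6), beside 61.2% of other genes. An assigned peak among the 1000 strongest was found for 3 members (8.82%, 3.05 to 22.96) beside 3.52%, and among the 3000 strongest for 4 (11.8%, 4.67 to 26.6) beside 9.75%. At wider limits the counts were 7 members among the 5000 strongest (20.6%, beside 15.2%) and 16 among the 10000 strongest (47.1%, beside 27.5%). Between ranks 20000 and 30000 no further member gained its first peak, whereas the share of other genes went from 46.9% to 61.2%. With pooled peaks of a deposited q-value of at most 0.05 alone, 12 members had an assigned peak (35.3%), beside 21.2% of other genes. The members' strongest assigned peaks had a median rank of 6430 and a median score of 8.44, beside 11338 and 6.94 for the 12199 other genes with a peak. The IDR set ended at a score of 22.2, between the 31.3 of rpn-3 and the 16.1 of rpn-6.1.

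**Figure D3:**
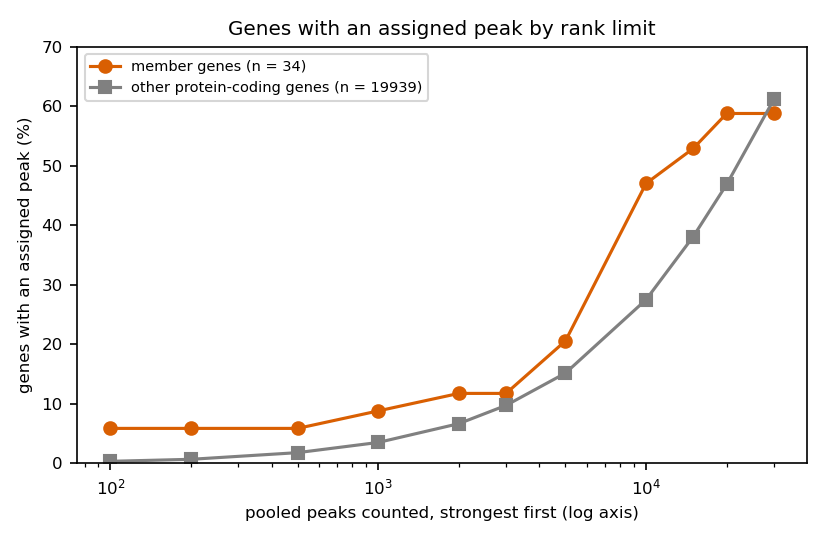
Share of genes with an assigned peak (y axis, percent) when only the strongest pooled peaks up to a rank limit are counted (x axis, log scale), for the 34 members and the 19939 other protein-coding genes. The members lie above the others at limits up to 20000, where at limits up to 1000 the share rests on 2 to 3 members, and the order is reversed over the whole list, 58.8% beside 61.2%.

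Most members' peaks were supported by replicate 1 and few by replicate 2. The strongest assigned peak overlapped a replicate 1 peak by at least 1 bp for 18 members (52.9% of 34, beside 37.4% of other genes) and a replicate 2 peak for 7 (20.6%, beside 26.3%). It overlapped both for 5 members, cdc-48.1, rpn-3, pbs-2, rpt-5 and rpt-6 (14.7%, 6.45 to 30.1, beside 12.7%). For 13 of the 20 members with a peak it overlapped replicate 1 alone, for 2 (pbs-7 and rpt-3) replicate 2 alone, and for 0 neither. For the 12199 other genes with a peak, these counts were 4922, 2697 and 2041. When each replicate's own list was assigned, 24 members had a peak in replicate 1 (70.6%, beside 60.4%) and 15 in replicate 2 (44.1%, beside 54.2%). The replicate lists end at different q-values, 0.356 in replicate 1 and 0.0502 in replicate 2, and the part of this in the unequal support was not tested. At the strong end the replicates named the same members: cdc-48.1 and rpn-3 were among the 203 strongest peaks of each (0.727% of other genes in replicate 1, 0.697% in replicate 2). Both hold IDR peaks, which are kept for repeating in rank between the replicates, so this agreement is not independent support for them. With rpn-6.1, cdc-48.1 and rpn-3 were also the members among the 1000 strongest of each (3.49% and 3.35%), although the rpn-6.1 peaks of the replicates were different sites.

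Most members without an assigned peak lay near a peak that was closer to another gene. A pooled peak lay within 2000 bp of a start for 31 members (91.2%, 77.04 to 97.0), beside 74.9% of other genes. For 14 of them the strongest such peak was nearer to another gene (41.2% of 34, 26.4 to 57.8, beside 22.2%), and 11 of these had no assigned peak at all (32.4%, 19.1 to 49.2, beside 13.7%). Members are crowded: 13 (38.2%, beside 13.1%) have an upstream neighbour on the opposite strand within 500 bp, and the sequence nearest to their starts, within 2000 bp, had a median of 2159.5 bp, beside 3000 bp. On the same strand, where upstream neighbours within 500 bp are common in worm operons, 7 members (20.6%) had such a neighbour, the same share as other genes (20.6%). Per kb of that sequence, 0.422 peaks were assigned to members and 0.313 to other genes.

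Of these 14 peaks, 9 had a centre within 500 bp of the start of the gene they were assigned to, and the distances from that start ran from 40 to 1044 bp. The strongest was at rank 515, 1341 bp from the start of pbs-2 and assigned to the alpha-tubulin gene tba-2. The peak at rank 1302, 1321 bp from the start of pas-1, was assigned to dhs-22. That at rank 1500 lay 192 bp upstream of pas-4 and was assigned to its neighbour rpb-3, which encodes a subunit of RNA polymerase II. The peaks at ranks 1599 and 2268 lay 476 bp upstream of pbs-7 and 168 bp upstream of rpt-2, and went to F39H11.1 and the adaptin gene aps-1. With pas-3, whose peak 196 bp upstream (rank 11816) was assigned to use-1, pas-4 and rpt-2 are the members without an assigned peak whose strongest peak in reach lay within 200 bp of the start. Besides ufd-1, no peak lay within reach of pas-6 (nearest 2937 bp) or rpn-8 (3068 bp).

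**Figure D4:**
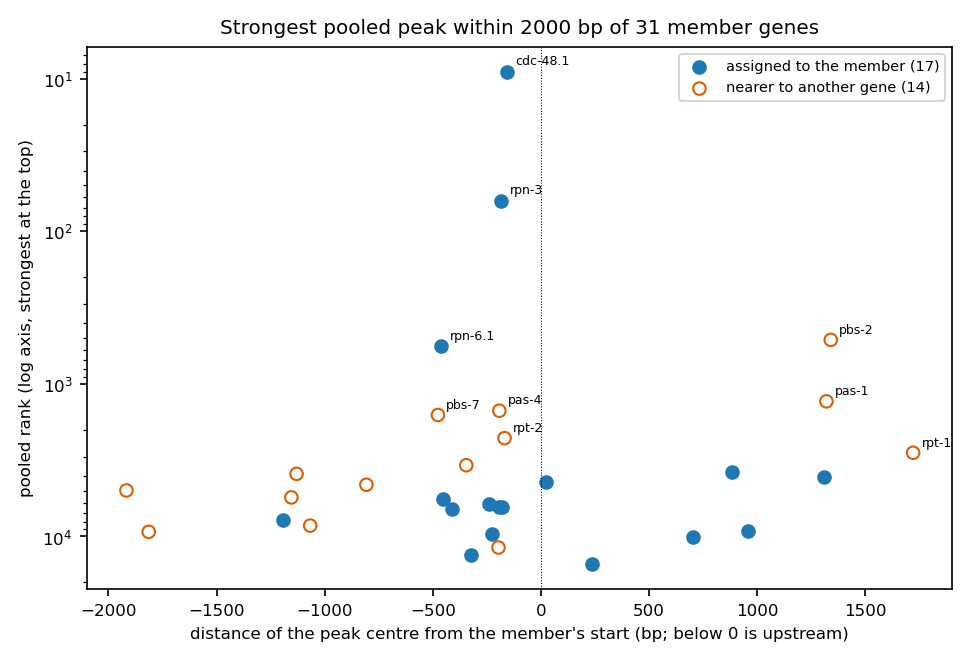
Strongest pooled peak within 2000 bp of a start for 31 members; the x axis is the distance of its centre from the member's start in bp, below 0 upstream, and the y axis its pooled rank on a log scale with the strongest at the top. Filled points (17) are peaks assigned to the member and open points (14) are peaks nearer to another gene. The strongest filled points lie upstream of cdc-48.1, rpn-3 and rpn-6.1, and the strongest open point is the peak at rank 515 near pbs-2.

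Of the 20 strongest assigned peaks, 15 (75%) had a centre within 500 bp of the start and 12 (60%) lay upstream, beside 41.6% and 46.7% for other genes with a peak. Neighbouring starts limit the distance a peak can have under this assignment. The sequence nearest to a gene's starts had a median of 2293 bp for members with a peak, beside 3304 bp for other genes with one. The part of this in the shorter distances was not tested. A second start was in reach for 16 of 20 (80%), beside 38.4%. Centres were intergenic for 9 (45%, beside 35.4%), in coding sequence for 7 (35%, beside 32.0%), in a 3′ UTR for 2 and in a 5′ UTR and an intron for 1 each (introns 5%, beside 26.3%). Within 50 bp of the centre, GTAAACA or ATAAACA was present at 0 of 20. A count of 0 was read here as permitting up to 3 counts (15%), a rough limit that includes the 4.60% seen at the peaks of other genes. Over the whole of the 20 peaks the count was again 0, beside 11.5% of other genes' peaks, a share that the same limit includes. GAGAGA was present within 50 bp at 2 (pas-7 and rpn-12, 10%, beside 8.65%) and a SKN-1 core at 3 (cdc-48.1, pbs-7 and rpn-2, 15%, beside 11.1%). In the whole of the members' 20 peaks, GAGAGA was present in 3 (15%, beside 20.4%) and a SKN-1 core in 7 (35%, beside 28.6%). Over whole peaks, forkhead cores occurred in 10.6% of the pooled peaks and 21.7% of the IDR peaks, GAGAGA in 20.2% and 59.1%, and a SKN-1 core in 28.3% and 21.2%. The IDR peaks of cdc-48.1 and rpn-3, printed above, held neither of the motifs that were more frequent in the IDR set. Median GC content within 50 bp was 40.6% for members' peaks and 38.6% for those of other genes, with a range among members from 27.7% to 54.5%.

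Other genes of the ubiquitin and proteasome pathway, 31 in all, were counted in the same way, and no test was made of a difference from the 34 members. None had an IDR peak, a count that permits at most 9.68% and so cannot be told apart from the 0.697% of other genes, and 18 (58.1%) had an assigned pooled peak. Among the 3000 strongest, 8 of 31 had one (25.8%, 13.7 to 43.2, beside 9.75% of genes outside the set of 34). Among the 1000 strongest, 2 did (6.45%, 1.79 to 20.7, beside 3.52%). The ubiquilin gene ubql-1 (WBGene00008852, chromosome I), which encodes a shuttle to the proteasome, had an intergenic peak 512 bp upstream with scores of 20.8 in the pooled list (rank 245), 12.7 in replicate 1 (rank 418) and 4.65 in replicate 2 (rank 5786). The start of pdi-3, which encodes a protein disulfide isomerase, lay 663 bp from the centre, and no peak was assigned to ubql-1 once noncoding genes were candidates too. The gene skn-1 (WBGene00004804, chromosome IV, 5651039 to 5660384) had its strongest peak in an intron, 1758 bp from a start on the upstream side, with scores of 20.4 (rank 264), 10.3 (rank 965) and 8.48 (rank 537), so that both replicates placed it high. When each gene was given 1 start only, its outermost, this peak was no longer assigned to skn-1, whose best rank became 26727. With noncoding genes as candidates, or a window of 500 or 1000 bp, the best rank was 1782. Of the other genes of the SKN-1A route, ddi-1, png-1 and sel-11 had peaks between ranks 16082 and 28083 and sel-1 had none.

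By class, a peak was assigned to 6 of 9 proteasome-associated genes (66.7%, 35.4 to 87.9) and 4 of 5 genes of the SKN-1A route (80%, 37.6 to 96.4). The counts were 4 of 10 for CDC-48 cofactor genes (40%, 16.8 to 68.7) and 4 of 7 for ubiquitin supply and conjugation (57.1%, 25.0 to 84.2). Each interval includes the 61.2% of other genes, so no class can be told apart from that share. The cofactor genes npl-4.1 and npl-4.2, partners of ufd-1, had none. The strongest cofactor peak, at rank 1377, lay 450 bp downstream of the start of ufd-2. The peaks assigned to ubq-1, the polyubiquitin gene, were 4, the best at rank 1667. The ubiquitin-conjugating enzyme gene let-70 had no assigned peak, although an IDR peak at rank 131 lay 865 bp upstream of its start and was assigned to klc-1.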

How the data were processed

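FKH-2 ChIP-seq peak lists of 2 replicates of 1 group were used in assembly ce11 (WBcel235). Per the deposited text files, the authors derived the replicate and pooled lists from alignments and a control, and from these 3 lists the IDR set. The sources used here name no aligner, peak caller or IDR threshold. The authors deposited for each peak a score, a −log10 of the q-value and a peak point, here called its centre. The ce10 lists were not used.

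Starts and gene models came from Ensembl release 115, sequence from RefSeq WBcel235. Assignment, counts and Wilson intervals were computed in Python 3.11.15 with pandas 2.3.3 and SciPy 1.17.1, and the assignment was checked on simulated peaks. A centre in several features was given 1, with UTRs and coding sequence before introns. Equal distances to starts of different genes (9 peaks) went to the first gene identifier.

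The members, the other pathway genes and the motifs were chosen with earlier results of these data known, so no test was made. Full values are given for members with an IDR peak, those with the 10 best pooled ranks and the CDC-48 group. Of other pathway genes, the rule named those with an IDR peak or a rank of 1000 or better, and ufd-2, ubq-1, let-70, npl-4.1, npl-4.2 and the SKN-1A route genes were named after their values were seen. So were neighbours named for members without an assigned peak.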

Additional observations from a re-analysis of the deposited data

How the results depend on the processing

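With every gene in reach counted, members with a peak were 31 in place of 20 (91.2%, beside 74.9% of other genes). Those with overlap in both replicates were 11 in place of 5, and those among the 3000 strongest peaks 9 in place of 4. Shares of other genes under this rule were not computed for the overlap or for the 3000 strongest, so these increases cannot be read as particular to members. With genes of every biotype competing, or with the 31 subunit genes alone, 1 member had an IDR peak in place of 2, in the first case because the rpn-3 peak went to a noncoding gene. Peaks with a deposited q-value of at most 0.05 reached 12 members (35.3%, beside 21.2% of other genes). Limiting replicate peaks to the 3000 strongest left 2 members with overlap in both replicates. Shares of other genes were not computed under that limit or with every biotype competing. Without replicate 1 or without replicate 2, using the other list alone, members with a peak numbered 15 to 24. Those in the strongest 10% of the list were 3 to 7, those among the 203 strongest 2 in each and those among the 1000 strongest 3 in each. Members overlapping the other replicate were 4 in each, and the median ranks were 4888 to 7282. For the strongest 10% and for overlap with the other replicate, shares of other genes were not computed, so these counts cannot be read as particular to members. The remaining comparisons, among 60 in all, covered windows from 500 to 5000 bp, 1 start per gene, larger overlap and the peak midpoint. Of the 60, 52 stayed within 1.5 times the main count or, for the median rank, within the replicate spread. That spread was the standard deviation of the median ranks from the 2 replicate lists used alone, so it is not an independent measure for those 2 settings. The cause of the shifts given here was not tested. No paired analysis was possible because there is 1 group. Unknown depth limits every absence stated above to peaks not listed.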
